A study of Mus musculus with 6 samples.

Results

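Embigin, basigin and the 3 monocarboxylate transporters they can escort were examined in natural killer (NK) cells at 3 stages of maturation. The members were all probe sets of Emb, Bsg, Slc16a1, Slc16a3 and Slc16a7 on the array, 8 probe sets of 5 genes, out of 45037 probe sets and 18193 named genes. The set was selected on the fall of Emb in CD27-CD11b+ cells, one of the largest in an earlier analysis of these arrays. The Emb values are therefore given as a description, with no test, and only the other 4 genes were tested. NK1.1+ cells came from the spleens of RAG-/- mice, which lack mature T and B cells, and this deficiency was shared by all groups. The labels give no age, sex or treatment of the animals. Cells were sorted with CD27, a co-stimulatory receptor, and CD11b, an integrin chain, into the subsets CD27+CD11b-, then CD27+CD11b+ and finally CD27-CD11b+, commonly taken as successive stages, with 2 arrays each and 6 in all. CD27+CD11b+ minus CD27+CD11b- is called the gain of CD11b, CD27-CD11b+ minus CD27+CD11b+ the loss of CD27, and CD27-CD11b+ minus CD27+CD11b- the outer comparison. The series text calls the 2 samples of a subset independent, but the labels do not name separate animals. The p-values therefore measure only sample-to-sample spread, which may be technical.

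Monocarboxylate transporters of the SLC16 family carry lactate, pyruvate and ketone bodies across the plasma membrane together with a proton. Slc16a1 encodes MCT1, a transporter used in both directions by many cells, Slc16a3 encodes MCT4, a lactate exporter of strongly glycolytic cells, and Slc16a7 encodes MCT2, a transporter of high affinity. These proteins reach the cell surface only with a single-pass immunoglobulin-family glycoprotein as a chaperone. Basigin (CD147) serves MCT1 and MCT4, and embigin is the usual partner of MCT2 and can also accompany MCT1. Lymphocytes that switch to glycolysis release lactate through this system.

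The arrays followed the sort, with one conflict in the labels. Cd27 averaged 8.41, 8.57 and 6.71 and Itgam, which encodes CD11b, 6.13, 8.35 and 9.69 in CD27+CD11b-, CD27+CD11b+ and CD27-CD11b+ cells, on the log2 scale of the values used throughout, made by RMA (robust multi-array average). The NK markers Ncr1, Klrd1 and Eomes were at least 9.84 on every array, whereas the B cell receptor component Cd79a and Ms4a1 (CD20) reached at most 5.23. The other B cell markers are given with the Emb results. The sort description of CD27-CD11b+ replicate 1 names the CD27+CD11b- gate while its title names CD27-CD11b+. Cd27 read 6.96 and Itgam 9.93 on it, against 6.47 and 9.44 on replicate 2. It was kept in the group of its title. The arrays also divided across the subsets: 3 unnamed probe sets averaged 12.57 to 12.81 on replicate 2 of both CD27+ subsets and replicate 1 of the CD27-CD11b+ subset (the on arrays) and 4.33 to 4.47 on the other 3 (the off arrays). Of 16 monocyte and macrophage markers, 14 were higher on the on array in all 3 subsets. So were 8 of 10 neutrophil, 3 of 10 dendritic cell, 3 of 6 megakaryocyte and 1 of 9 erythroid markers. The same count over all probe sets was not made. A value under 6.31, the 95th percentile of 52 measured genes of other tissues, is called near background below.

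Embigin transcript was abundant in both CD27+ subsets and low in CD27-CD11b+ cells by all 3 of its probe sets. Probe set 1415857_at read 11.30 and 11.51 in CD27+CD11b-, 10.94 and 10.72 in CD27+CD11b+ and 7.78 and 8.0 in CD27-CD11b+ cells. Probe set 1415856_at read 10.30 and 10.84 in CD27+CD11b-, 9.82 and 10.05 in CD27+CD11b+, and 6.43 and 6.54 in CD27-CD11b+ cells. The third, 1447286_at, read 8.60 and 9.61 in CD27+CD11b-, 7.80 and 8.73 in CD27+CD11b+, and 4.63 and 5.15 in CD27-CD11b+ cells. Both CD27-CD11b+ arrays lay below all 4 CD27+ arrays on each probe set, by more than the whole range of the CD27+ arrays. They were near background on 1447286_at, just above that level on 1415856_at and clearly above it on 1415857_at.

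**Figure D1:**
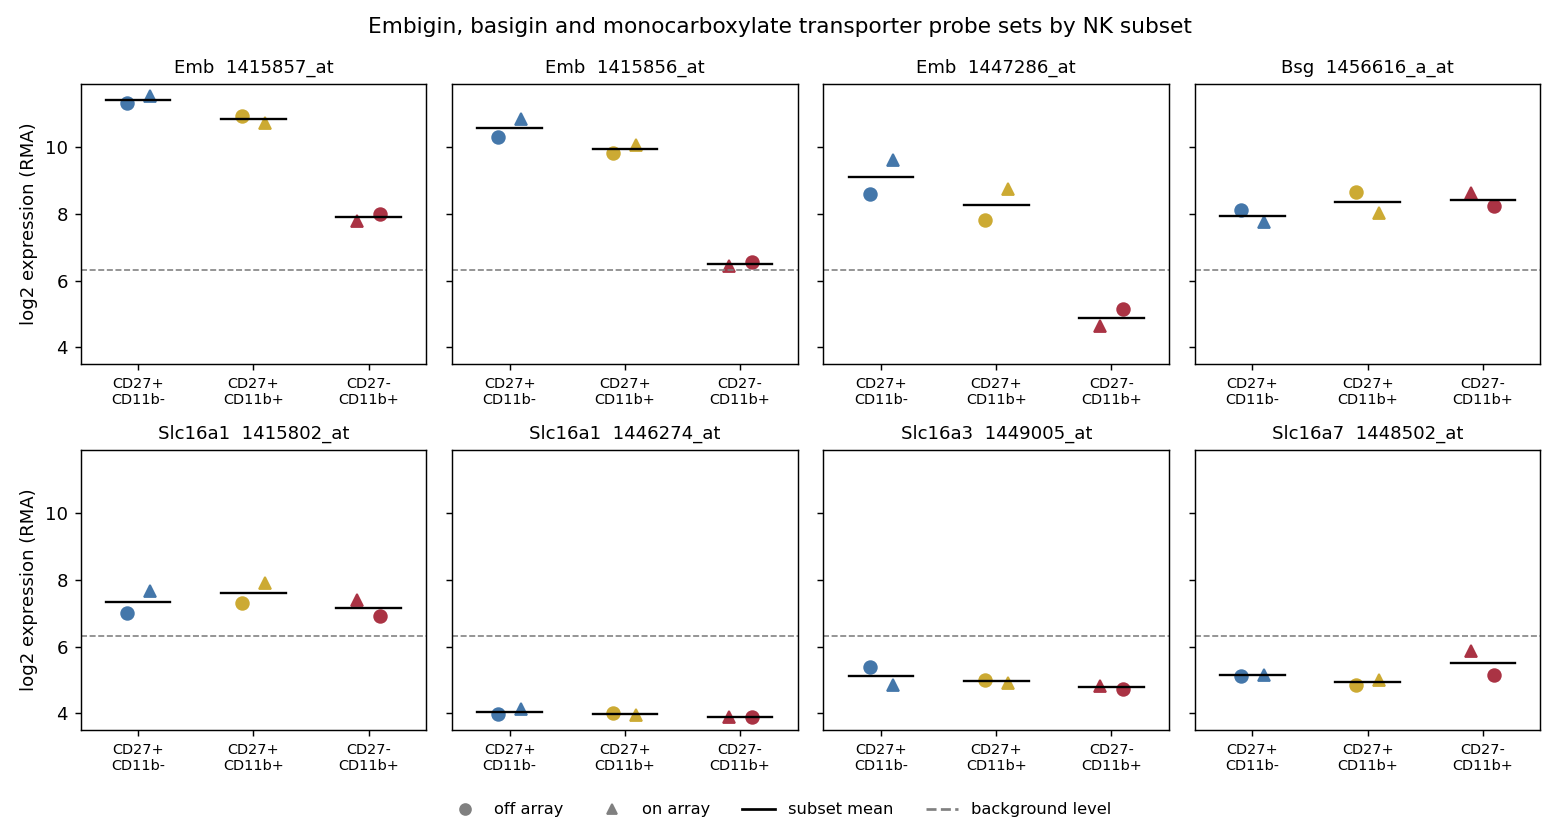
Log2 expression (RMA) of the 8 probe sets of Emb, Bsg, Slc16a1, Slc16a3 and Slc16a7, 1 point per array, circles for off and triangles for on arrays. Black bars are subset means (n = 2) and the dashed line is the background level of 6.31. The 3 Emb probe sets drop in CD27-CD11b+ cells, whereas Bsg stays between 7.76 and 8.66 and the first Slc16a1 probe set between 6.90 and 7.89.

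The promoter windows of Emb, Slc16a1 and Slc16a3 are shown because these genes encode a chaperone with a steep subset difference, a transporter above background in every subset and a transporter near background in all. Each runs from 250 bases before to 50 bases after the RefSeq start of the gene (GRCm38.p6), 5′ to 3′, with all 3 on the plus strand. They lie at chr13:117220323-117220622 (Emb), chr3:104638414-104638713 (Slc16a1) and chr11:120948817-120949116 (Slc16a3). Capitals mark CACCTG in Emb, CACGTG in Slc16a1 and ACGTG in Slc16a3.
Emb: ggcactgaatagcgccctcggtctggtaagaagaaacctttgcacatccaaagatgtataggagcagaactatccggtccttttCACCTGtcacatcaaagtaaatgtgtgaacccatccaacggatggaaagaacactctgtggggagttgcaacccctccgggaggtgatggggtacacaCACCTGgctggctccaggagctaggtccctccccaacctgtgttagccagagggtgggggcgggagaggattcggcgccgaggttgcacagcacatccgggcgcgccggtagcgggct
Slc16a1: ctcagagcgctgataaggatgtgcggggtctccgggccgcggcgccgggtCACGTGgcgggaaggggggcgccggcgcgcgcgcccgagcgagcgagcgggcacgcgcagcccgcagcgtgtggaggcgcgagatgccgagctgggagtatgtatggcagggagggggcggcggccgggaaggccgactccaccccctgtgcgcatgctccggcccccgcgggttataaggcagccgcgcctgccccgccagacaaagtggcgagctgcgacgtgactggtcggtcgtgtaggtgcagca
Slc16a3: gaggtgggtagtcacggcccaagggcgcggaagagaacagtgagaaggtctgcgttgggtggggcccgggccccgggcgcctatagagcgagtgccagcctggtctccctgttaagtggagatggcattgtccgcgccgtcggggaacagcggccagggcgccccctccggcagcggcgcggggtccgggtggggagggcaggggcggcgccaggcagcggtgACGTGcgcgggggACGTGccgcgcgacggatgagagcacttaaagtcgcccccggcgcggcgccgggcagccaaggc

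The windows were searched on both strands for 4 short motifs, picked with the expression results known. CACCTG, an E-box form known as a ZEB-family recognition sequence, occurs 2 times in the Emb window, at -166 and -68 from the start, and 2 or more copies are found in 2.88% of 32851 such mouse windows (at least 1 in 20.2%). The palindrome CACGTG, the E-box form known for MYC, occurs 1 time in the Slc16a1 window and in 7.15% of windows. The core ACGTG, known from hypoxia-response elements and contained in CACGTG, was matched 3 times in Slc16a1 and 2 times in Slc16a3. The CACGTG palindrome of Slc16a1 gives 2 of its 3 matches, 1 on each strand. Counted in this way, 2 or more matches are found in 8.21% of windows, among them every window with CACGTG, and at least 1 in 19.6%. The T-box sequence AGGTGTGA is in none of the 3 windows and in 1.28% of all. These matches describe letters only.

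The step that accompanies the loss of CD27 carried most of the embigin difference. On 1415857_at Emb averaged 7.89 ± 0.16 in CD27-CD11b+ and 10.83 ± 0.15 in CD27+CD11b+ cells (SD, n = 2 each), a difference of -2.94 (SE 0.16) and a 7.67-fold lower level. Each SE here and below is that of the limma fit. For Emb it describes array spread only and gives no test, since the set was selected on these values. On 1415856_at the means were 6.49 ± 0.08 in CD27-CD11b+ and 9.93 ± 0.16 in CD27+CD11b+ cells, a difference of -3.45 (SE 0.21), or 10.9-fold. On 1447286_at the CD27-CD11b+ mean of 4.89 was near background, so the level was at least 3.89-fold lower than the 8.27 of CD27+CD11b+ cells when counted from the background level. In a bulk sample, fewer cells with the transcript and less transcript per cell cannot be told apart.

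Between the CD27+ subsets the embigin difference was smaller. It was -0.58 (SE 0.16) on 1415857_at, -0.64 (SE 0.21) on 1415856_at and -0.84 (SE 0.43) on 1447286_at for CD27+CD11b+ minus CD27+CD11b- cells. The arrays of these subsets did not overlap on the first 2 probe sets, where the highest CD27+CD11b+ arrays read 10.94 and 10.05, against lowest CD27+CD11b- arrays of 11.30 and 10.30. They overlapped on the third. With 2 arrays per subset a lack of overlap carries little weight, and its share over all probe sets was not counted. On the first 2 probe sets this step made up 16.4% and 15.6% of the outer difference, which is a description of the values the set was selected on.

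Over the whole sequence, the difference of CD27-CD11b+ minus CD27+CD11b- cells was -3.52 (SE 0.16) on 1415857_at and -4.08 (SE 0.21) on 1415856_at, 11.4-fold and 17.0-fold lower. On 1447286_at the level was at least 6.98-fold lower, counted from the background level. Within the off arrays the CD27-CD11b+ minus CD27+CD11b+ difference was -2.94 and -3.28 on 1415857_at and 1415856_at, and within the on arrays -2.94 and -3.62. Without CD27-CD11b+ replicate 1, the array with the conflicting sort description, it was -2.83 and -3.39. The 3 comparisons share arrays, so these differences are not independent of each other.

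**Figure D2:**
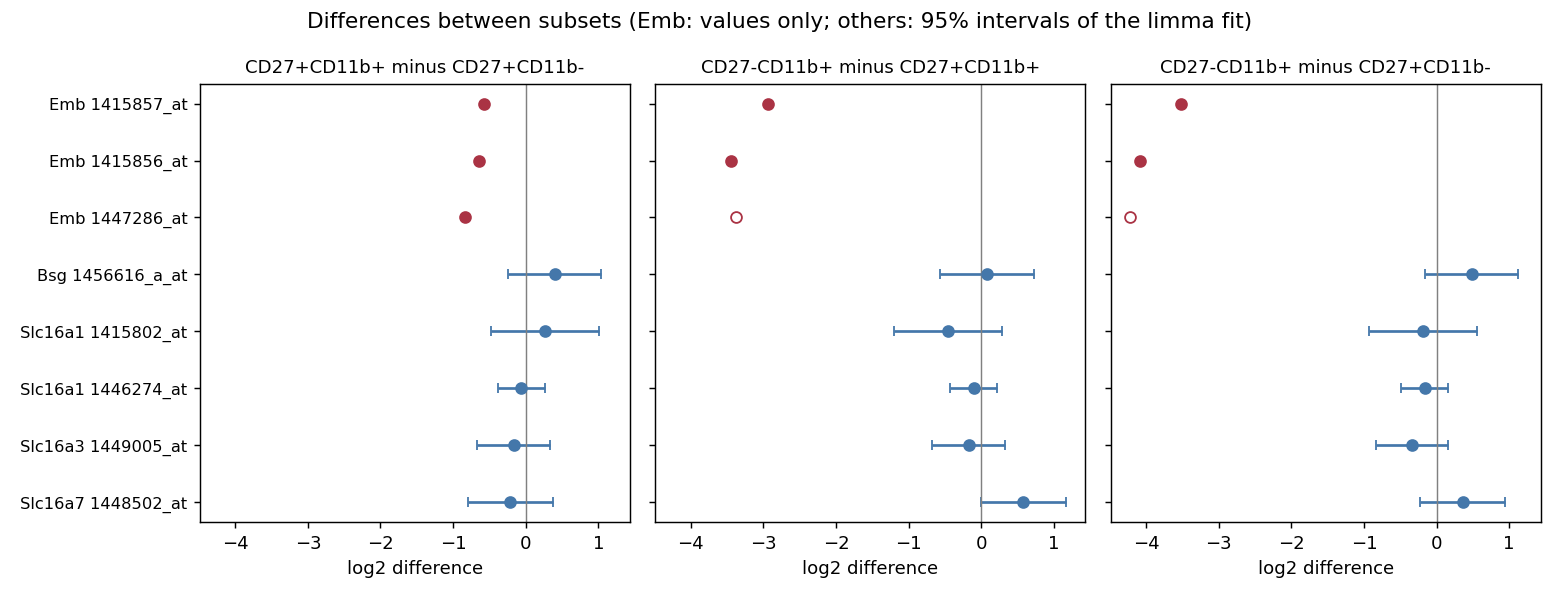
Log2 differences for the 8 probe sets in the 3 subset comparisons, with 95% intervals of the limma fit for Bsg and the transporters (blue) and values alone for Emb (red). Open circles mark 1447286_at where CD27-CD11b+ cells were near background, so that only a bound on its size is given in the text. All intervals of Bsg and the transporters include 0.

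Marker lists of other cell types were read on the same arrays. The mean of 7 measured markers of other innate lymphoid cells was 9.0 to 9.24 in CD27+CD11b-, 7.89 to 8.07 in CD27+CD11b+ and 7.73 to 7.79 in CD27-CD11b+ cells. Against 0.282% of all 45037 probe sets, 3 of the 7 were called lower in CD27-CD11b+ than in CD27+CD11b- cells. These were Il7r, the interleukin-7 receptor chain, Tmem176a and Tmem176b, and Il7r was also called lower at the loss of CD27 (difference -1.96, limma adjusted p = 0.0394). The list's median difference was -1.61 at the gain of CD11b, -0.05 at the loss of CD27 and -1.43 in the outer comparison. The mean of 10 T cell markers was 7.0 to 7.27, 6.75 to 7.08 and 6.26 to 6.32 in the same order of subsets. Of these 10, 6 were above background and 7 were lower in the outer comparison. There 2 were called lower, Cd28 and Thy1, against 0.282% of all probe sets. Cd3e stayed between 6.02 and 6.44, around the background level. Of 9 B cell markers, 2 were above background, 8 were lower in the outer comparison and 1 was called, the inhibitory receptor gene Cd22 with means of 5.86 in CD27-CD11b+ cells (near background) and 8.07 in CD27+CD11b- cells (limma adjusted p = 0.00752), and the list averaged 5.83 to 5.99 in CD27+CD11b-, 5.55 to 5.58 in CD27+CD11b+ and 5.32 to 5.47 in CD27-CD11b+ cells. Of 9 mast cell and basophil markers, 1 was above background, 8 were lower and 1 was called in the outer comparison, the receptor gene Kit with means of 5.10 in CD27-CD11b+ cells (near background) and 8.25 in CD27+CD11b- cells (limma adjusted p = 0.0322). That list averaged 5.16 to 5.29, 5.08 to 5.13 and 4.66 to 4.83 in maturation order. The neutrophil, dendritic cell, erythroid, megakaryocyte, stromal and monocyte lists had 0 called in limma. These called markers were named after their values were seen. The mean of 24 cell cycle genes was higher on the off array in each subset. It was 9.08, 8.64 and 7.44 on the off arrays and 7.98, 7.55 and 7.25 on the on arrays, in maturation order. In the outer comparison, limma called 0 of the 24. The median outer difference of this list was -1.35 and 23 of the 24 differences were negative. It was -2.76 for the proliferation antigen gene Mki67 (limma adjusted p = 0.122) and -2.44 and -2.43 for the cyclin genes Ccnb2 and Ccna2 (limma adjusted p = 0.199 and 0.181). With the array division as a block in limma, 4 of the 24 were called lower, Mki67 (adjusted p = 0.00937), Ccna2 (0.0272), Ccnb2 (0.0491) and Rrm2 (0.0424), and with 1 probe set per gene Mki67 (0.0397). Of all features, the block called 430 of 45037 probe sets in the outer comparison, and 1 probe set per gene called 617 of 18193. The part of these lists in the embigin difference was not tested.

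Basigin transcript was above background in all 3 subsets and did not pass the test in any comparison. Its only uniquely annotated probe set, 1456616_a_at, read 8.12 and 7.76 in CD27+CD11b-, 8.66 and 8.01 in CD27+CD11b+, and 8.61 and 8.23 in CD27-CD11b+ cells. The CD27-CD11b+ arrays lay above both CD27+CD11b- arrays, which carries little weight with 2 arrays each, and within the range of the CD27+CD11b+ arrays. Bsg averaged 8.42 ± 0.27 in CD27-CD11b+ and 7.94 ± 0.25 in CD27+CD11b- cells, a difference of 0.48 (SE 0.27, 95% interval -0.16 to 1.13, limma adjusted p = 0.466). The loss of CD27 gave 0.08 (95% interval -0.56 to 0.72, limma adjusted p = 0.953), with -0.43 on the off and 0.60 on the on arrays and -0.11 without CD27-CD11b+ replicate 1. That interval leaves room for a level of 0.68 to 1.65 times that of CD27+CD11b+ cells. The intervals of the outer comparison and of the gain of CD11b leave room for 0.90 to 2.18 and 0.85 to 2.06 times. The gain of CD11b gave 0.40 (95% interval -0.24 to 1.04, limma adjusted p = 0.99997).

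Slc16a1, for MCT1, was the only one of the 3 transporter genes above background. Probe set 1415802_at read 7.01 and 7.66 in CD27+CD11b-, 7.31 and 7.89 in CD27+CD11b+, and 7.39 and 6.90 in CD27-CD11b+ cells. The subsets overlapped throughout, and the on array was the higher one in each, by 0.65, 0.58 and 0.49 in maturation order. The mean of the 16 monocyte and macrophage markers followed the same division. It was 7.60, 7.97 and 7.79 on the on arrays and 6.25, 7.11 and 6.90 on the off arrays. The mean of 10 neutrophil markers did so too, at 7.01, 7.11 and 6.95 on the on and 5.94, 6.32 and 6.31 on the off arrays. The dendritic cell, megakaryocyte and other innate lymphoid means were also higher on the on array in each subset. The erythroid and cell cycle means were lower on it. The part of these lists in the Slc16a1 values was not tested. Slc16a1 averaged 7.15 ± 0.34 in CD27-CD11b+ and 7.60 ± 0.41 in CD27+CD11b+ cells, a difference of -0.45 (SE 0.31, 95% interval -1.20 to 0.29, limma adjusted p = 0.732), or -0.70 without CD27-CD11b+ replicate 1. The outer difference was -0.19 (95% interval -0.93 to 0.55, limma adjusted p = 0.827) and that at the gain of CD11b 0.26 (95% interval -0.48 to 1.01, limma adjusted p = 0.99997). The second probe set, 1446274_at, stayed between 3.88 and 4.12, near background.

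The lactate exporter gene Slc16a3 and the high-affinity transporter gene Slc16a7 were near background on every array. Slc16a3 ranged from 4.73 to 5.40 and Slc16a7 from 4.85 to 5.87, so no fold change is given for either. The highest Slc16a7 value was that of CD27-CD11b+ replicate 1, against 5.15 in replicate 2. The CD27-CD11b+ minus CD27+CD11b+ difference of Slc16a7 was 0.58 (SE 0.24, 95% interval -0.01 to 1.16, limma adjusted p = 0.577). Its CD27-CD11b+ arrays lay above both CD27+CD11b+ arrays, which carries little weight with 2 arrays each. The difference was 0.22 without CD27-CD11b+ replicate 1. A reading near background does not show that a transcript is absent, since a probe set can hybridise poorly.

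Across the 5 probe sets of Bsg and the transporters, 0 passed an adjusted p of 0.05 in any of the 3 limma comparisons. The share of all 45037 probe sets called was 0.0% for CD27+CD11b+ minus CD27+CD11b-, 0.04% for CD27-CD11b+ minus CD27+CD11b+ and 0.639% for CD27-CD11b+ minus CD27+CD11b-, so a count of 0 among 5 is near the background share. The shares higher and lower were 0.02% each at the loss of CD27, and 0.357% higher and 0.282% lower in the outer comparison. These stand for 0, 18 and 288 probe sets, with 1339, 3928 and 6698 at an unadjusted p under 0.05. With 1 probe set per gene the counts were 22, 54 and 617, and again 0 of the 4 partner genes passed. Leaving out 1 array changed the count at the loss of CD27 to 415 without CD27-CD11b+ replicate 2, 3 without its replicate 1 and 0 without any of the other 4. The outer count became 971 without CD27-CD11b+ replicate 2, 73 without its replicate 1, 68 without either CD27+CD11b+ array, and 23 and 18 without replicates 1 and 2 of CD27+CD11b-, with 0 partner probe sets called each time. Over the 6 arrays the correlation of Emb 1415857_at was -0.49 with Bsg and 0.37 with Slc16a1 1415802_at, given as a description of arrays that share subsets.

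The neighbourhood of the transport system was described with gene lists, each gene by its brightest probe set. The main test called 0.0%, 0.04% and 0.639% of all probe sets at the gain of CD11b, the loss of CD27 and in the outer comparison. A count of 0 in a list is near these shares. Of 10 other measured Slc16 genes, only Slc16a6 was above background, with means of 8.62 ± 0.16 in CD27-CD11b+ cells and 8.35 ± 0.03 in CD27+CD11b- cells, and 0 passed in any comparison. Among 11 measured relatives and partners of basigin, 0 passed and the median outer difference was 0.19, against -0.01 over all genes. Xkr8, a scramblase escorted by basigin or neuroplastin, differed most, with means of 7.37 ± 0.37 in CD27-CD11b+ cells and 6.25 ± 0.19 in CD27+CD11b- cells (difference 1.12, SE 0.21, limma adjusted p = 0.0910). It was called with 1 probe set per gene (limma adjusted p = 0.0297), a setting that called 617 of 18193 genes in the outer comparison. Itga6, an integrin alpha chain, differed by 0.75 (limma adjusted p = 0.126) and Slc7a5, the large neutral amino acid transporter LAT1, by -0.84 (limma adjusted p = 0.175). Nptn, the neuroplastin gene and a further chaperone of this protein family, was 10.93 ± 0.23 in CD27-CD11b+ and 10.31 ± 0.04 in CD27+CD11b- cells, a difference of 0.63 (limma adjusted p = 0.175); it was singled out after its values were seen.

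Among 20 enzymes and carriers of lactate and pyruvate, 1 fell in the outer comparison, where 0.282% of all probe sets were called lower, and 19 did not pass. It was Pdk1, a kinase that inhibits pyruvate dehydrogenase and so keeps pyruvate out of the mitochondrial cycle. Pdk1 read 7.07 and 6.96 in CD27-CD11b+ and 8.31 and 8.34 in CD27+CD11b- cells, with 7.88 and 7.90 in CD27+CD11b+ cells between them. The outer difference was -1.31 (SE 0.13, limma adjusted p = 0.0190), a 2.49-fold lower level. A second probe set above background gave -1.87 (limma adjusted p = 0.0138), and 1435836_at gave -0.91 (limma adjusted p = 0.157). Ldha, the lactate dehydrogenase subunit that favours lactate formation, averaged 11.08 ± 0.09 in CD27-CD11b+ and 11.08 ± 0.15 in CD27+CD11b- cells, and was singled out as the enzyme that makes the transported substrate.

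Glycolysis genes differed in both directions and 0 of 16 measured passed in any comparison, near the share of all probe sets (at most 0.639%). The largest outer differences were -1.42 for Hk3, 1.23 for Hk1, both hexokinases, and 1.22 for Pkm, pyruvate kinase (limma adjusted p = 0.140, 0.110 and 0.141). The list's median outer difference was 0.04. With 1 probe set per gene, Hk1 and Pfkl, a phosphofructokinase gene with a difference of 1.01, were called higher (limma adjusted p = 0.0393 and 0.0416). That setting called 617 of all 18193 genes in the outer comparison. Among 8 genes of ketone body and acetate use, 1 rose in the outer comparison, where 0.357% of all probe sets were called higher. It was Acss2, the enzyme that activates acetate in cytosol and nucleus. Acss2 read 10.35 and 9.95 in CD27-CD11b+ and 8.18 and 8.35 in CD27+CD11b- cells, a difference of 1.88 (SE 0.18, limma adjusted p = 0.0179) and a 3.69-fold higher level. Its second probe set above background gave 1.57 (limma adjusted p = 0.0987). The Acss2 call was lost after adding 32 to the linear values, whereas that of Pdk1 was kept.

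Proton and bicarbonate handling had 0 of 8 measured genes past the test, with outer differences of -1.28 for Hvcn1, a voltage-gated proton channel, 0.84 for the anion exchanger gene Slc4a2 and -0.59 for the carbonic anhydrase gene Car2 (limma adjusted p = 0.0645, 0.0984 and 0.184). With 1 probe set per gene, limma called Hvcn1 lower (adjusted p = 0.0163) and Slc4a2 higher (adjusted p = 0.0391), among 617 of 18193 genes called. Of 17 regulators of glycolytic genes, 1 fell, against 0.282% of all probe sets called lower, and 16 did not pass. Egln3, an oxygen-sensing prolyl hydroxylase that is itself a known hypoxia target, read 4.79 and 4.93 in CD27-CD11b+ and 6.17 and 6.28 in CD27+CD11b- cells (difference -1.37, SE 0.17, limma adjusted p = 0.0346), near background in both. After adding 32 to the linear values its difference was -0.81 and the call was lost (limma adjusted p = 0.0687). Egln3 probe set 1418648_at, also near background, gave -0.53 (limma adjusted p = 0.152). Hif1a, the hypoxia factor itself, differed by -0.38 and Myc, an activator of glycolytic genes, by -1.07 (limma adjusted p = 0.484 and 0.175); both were singled out as the best known regulators. Myc was called lower with the array division as a block (limma adjusted p = 0.0406), and Mxi1, a MYC antagonist gene, was called higher with 1 probe set per gene (difference 1.10, limma adjusted p = 0.0160). In the outer comparison the block called 430 of 45037 probe sets and the other setting 617 of 18193 genes. The calls of Pdk1, Acss2 and Egln3 were each lost without any one of 5 of the 6 arrays and kept without CD27-CD11b+ replicate 2, with limma adjusted p up to 0.189, 0.157 and 0.255. Without CD27-CD11b+ replicate 1 the differences were -1.37, 1.68 and -1.30. At the gain of CD11b and at the loss of CD27, limma called 0 genes of these lists.

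**Figure D3:**
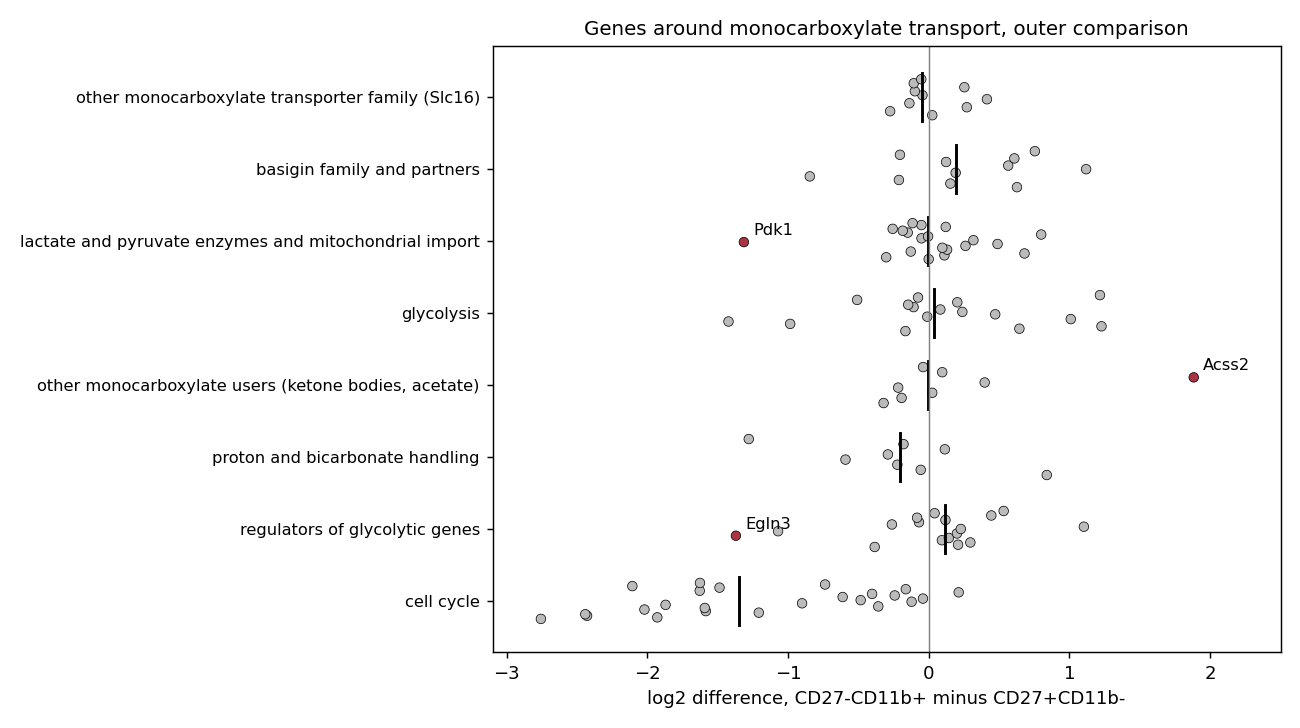
Log2 differences, CD27-CD11b+ minus CD27+CD11b-, of the measured genes in 8 lists around monocarboxylate transport, 1 point per gene by its brightest probe set. Black bars are list medians and red points passed an adjusted p of 0.05, namely Pdk1, Egln3 and Acss2.

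Genes whose profile was most like that of Emb were ranked by Pearson correlation with 1415857_at over the 6 arrays, among 508 genes above background whose subset means spanned at least 1. The 10 highest were Crtam (0.997), Aff3 (0.996), Kbtbd11 (0.987), Ltb (0.981), Spint2 (0.980), Cdk6 (0.980), Cmtm7 (0.980), Hook1 (0.979), Pdk1 (0.978) and Cxcr3 (0.978). Crtam encodes a nectin-family adhesion receptor, Ltb lymphotoxin beta, Cdk6 a cell cycle kinase and Cxcr3 a chemokine receptor. Each differed more at the loss of CD27 than at the gain of CD11b, as with -1.61 and -0.30 for Crtam and -1.84 and -0.26 for Cxcr3. The ranking favours this shape, since it is that of Emb, so it is no separate result. The 5 most opposite were Gpx8 (-0.996), Kcnj8 (-0.995), Smarcd3 (-0.994), Ccdc71l (-0.993) and Cx3cr1 (-0.992), the last the fractalkine receptor. The points share arrays and subsets, and 34 of the 508 genes reached at least 0.95, so these ranks separate genes by small margins: 4 of the 10 were also among the 10 most like the second Emb probe set and 1 among those most like the third.

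**Figure D4:**
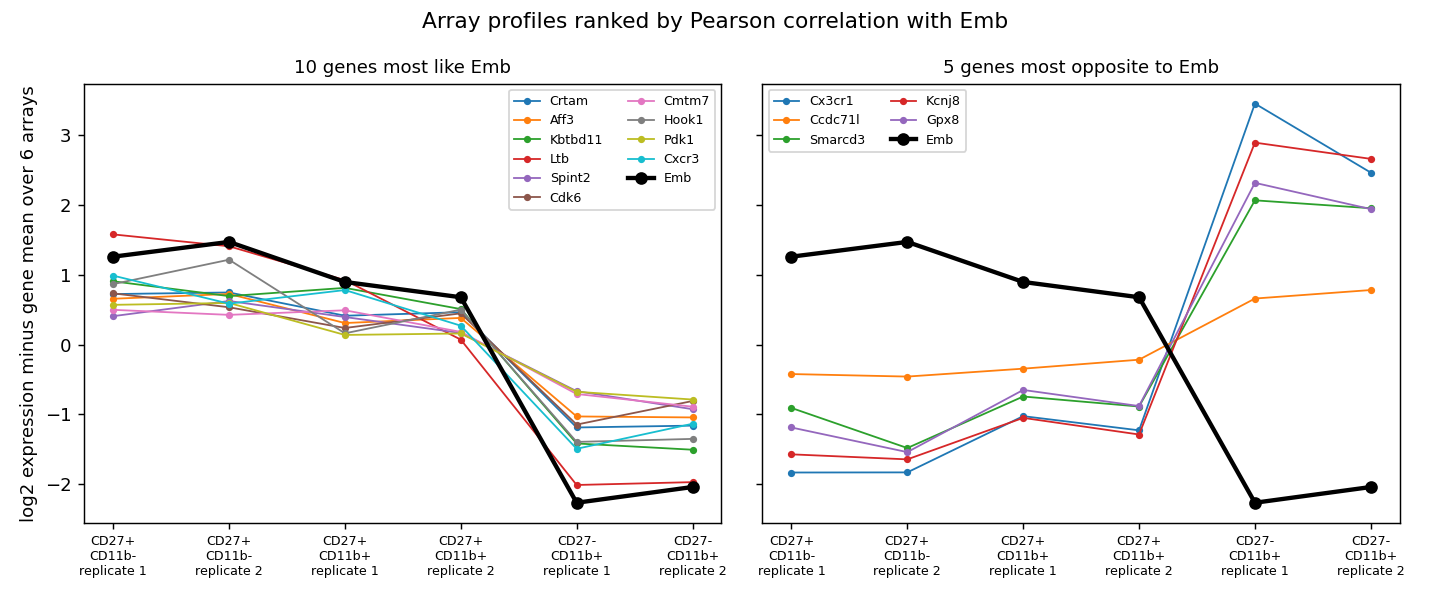
Log2 expression minus each gene's mean over the 6 arrays, for the 10 genes most like Emb (left) and the 5 most opposite (right), with Emb 1415857_at in black. Both CD27-CD11b+ arrays lie apart from the 4 CD27+ arrays in each profile, a shape that the ranking on Emb favours.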

How the data were processed

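Total RNA of 6 sorted samples was hybridised to Affymetrix mouse 430 2.0 arrays, per the labels. The authors deposited log2 expression values. RMA is named in the submitters' processing notes; its version and the chip definition are not given in sources used here, and the scale was read from the values' range. RMA equalises arrays and compresses differences of dim genes, so fold changes near background are understated. Array medians were 5.26 to 5.35. Precision is limited by the number of arrays.

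Of 45101 probe sets, 64 controls were left out. The array annotation gave 1 symbol to 34945 of the rest, several to 932 and none to 9160, and only probe sets with 1 symbol were named; 34741 of them matched the RefSeq gene table. A gene in a list stands for its probe set with the highest mean. Samples were grouped by title. The main test was limma 3.58.1 (R 4.3.3) with a mean for each subset, fitted on the 6 arrays together (3 residual and 3.34 prior degrees of freedom), Benjamini-Hochberg adjusted over 45037 probe sets and called under 0.05. Named genes were the members, the called genes of each list or else up to 3 with the largest outer difference, and the 10 most and 5 least like Emb. The members, lists and array division were chosen with earlier results of these data known. Alternatives covered features, filter, pseudocount, scaling, prior, blocks and each array left out. The fit was tested on simulated data with known changes and missed most changes of 2-fold, so a gene that was not called may still differ.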

Additional observations from a re-analysis of the deposited data

How the results depend on the processing

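All 138 values of the Emb differences under the alternatives stayed negative, a description of the values the set was selected on. Many of them repeat the main value by construction. These are 1 probe set per gene, the filter on background, the mean-dependent prior, both blocks and arrays left out of the uncompared subset. Leaving out each array in turn, Emb 1415857_at gave -0.69 to -0.47 at the gain of CD11b, -3.05 to -2.83 at the loss of CD27 and -3.63 to -3.40 in the outer comparison. It gave -2.78 and -3.35 in the last 2 after adding 32 to the linear values, and at the gain of CD11b -0.36 on the off and -0.79 on the on arrays, with -3.30 and -3.73 in the outer comparison.

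None of the 5 partner probe sets was called under any alternative in limma (lowest adjusted p = 0.0970). Their signs were not stable. Bsg at the loss of CD27 was -0.014 after median centring, -0.020 after quantile normalisation, -0.43 on the off and 0.60 on the on arrays, and -0.24 to 0.41 with 1 array left out; its outer difference was 0.11 on the off and 0.85 on the on arrays. Slc16a1 1415802_at ranged from -0.063 to 0.59 at the gain of CD11b and from -0.52 to 0.14 in the outer comparison with 1 array left out. At the gain of CD11b, Slc16a1 1446274_at reached -0.13 to 0.0060 with 1 array left out and 0.041 on the off arrays, and Slc16a3 -0.45 to 0.12 and 0.064 on the on arrays. Outer differences on the off and on arrays were -0.67 and -0.0044 for Slc16a3 and 0.018 and 0.71 for Slc16a7.

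Counts of called probe sets moved more. At the gain of CD11b, 0 in the main analysis became 22 with 1 probe set per gene, 4 after median centring, 1 after quantile normalisation and 3 with a mean-dependent prior. At the loss of CD27, 18 became 54 with 1 probe set per gene, 2 after adding 32, 11 with the replicate block, 5 with the array division as a block and 0 to 415 with 1 array left out. The outer 288 became 617 with 1 probe set per gene, 127 after adding 32, and 18 to 971 with 1 array left out. The 3 genes called among the function lists in the outer comparison became 10 with 1 probe set per gene, 1 after adding 32, 8 with the array division as a block and 0 to 5 with 1 array left out. The causes were not tested, except that fewer features or arrays enter by construction. Replicate 1 minus replicate 2 correlated at 0.61 between the CD27+ subsets, whose replicate numbers fall on the same sides of the array division. The correlations with CD27-CD11b+ were -0.08 for CD27+CD11b- and 0.06 for CD27+CD11b+. The replicate numbers are therefore not taken as pairs across the 3 subsets. The replicate block and the division block each called 0 probe sets at the gain of CD11b, and 390 and 430 in the outer comparison. Median centring put the median of all probe sets at -0.14 in the outer comparison.

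Taking the probe set of the largest range for each gene gave the same count of 3 called list genes. The filter on background left no value for Slc16a3, Slc16a7 and Slc16a1 1446274_at, and 1 probe set per gene none for the secondary probe sets. With 6 arrays, a partner change below the intervals given cannot be resolved, and levels near background carry no detection call.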
